A study of Mus musculus with 6 samples.

Results

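Imprinted genes are transcribed mainly from the copy inherited from one parent. The 40 genes described here are well-known mouse imprinted genes, chosen by symbol, and all 40 were present in a table of 17912 genes. By their textbook parental expression 22 are paternally expressed and 18 maternally expressed, and most lie in clusters in which a shared control region, methylated on one parental copy, governs several neighbours. The 6 libraries hold poly(A) RNA of cells that the labels call mouse embryonic stem cells (ESCs), a cell type that can form all tissues of the embryo. Of the libraries, 3 are controls of wild-type genotype (replicates 1, 2 and 3), and the other 3 as Exosc2 knockdown clones made with a short hairpin RNA (clones 5, 6 and 7). Exosc2 encodes a subunit of the RNA exosome, which trims and degrades RNA. The sample labels do not say whether the controls carried a hairpin, which ESC line was used, or whether the libraries came from separate cultures. The p-values therefore measure only the spread between these libraries, which may be technical, and the hairpin, clonal origin and cell state cannot be told apart. The recovered reads numbered 21107761 to 26494985 per library.

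Imprinting is set in the germ line by DNA methylation and is kept through the demethylation of the early embryo. In ESCs the DNA-binding protein ZFP57 and its partner TRIM28 hold that methylation by binding a methylated hexamer at the control regions. Imprinted genes act in fetal and placental growth, in nutrient transport, in brain function and as non-coding regulators of their own clusters. The reads of this study were not assigned to a parental copy, so the values are total transcript levels and say nothing on which allele was active. Several members (Ube3a, Blcap, Trappc9, Commd1, Copg2, Gnas) are imprinted in some tissues only.

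The promoter windows of a few members that fell or rose are shown as examples, among them a single stretch that serves both of a pair. They were not picked by size of change, and members that fell further, such as Slc38a4, Nnat and Phlda2, are not printed. The sequences come from RefSeq on build GRCm38.p6, and only bases before the start site are printed, with the hexamer TGCCGC, the ZFP57 recognition sequence, in capitals on either strand (GCGGCA when read on the other). Mest (chr6:30737800-30738049, plus strand) and Nap1l5 (chr6:58907127-58907376, minus strand) are paternally expressed genes that fell in the clones. Mcts2 (chr2:152686898-152687147, plus strand) is paternally expressed and rose. The last line is the 163 bases between the divergent start sites of Peg3 and Usp29 (chr7:6730420-6730582, plus strand), both of which rose.
Mest: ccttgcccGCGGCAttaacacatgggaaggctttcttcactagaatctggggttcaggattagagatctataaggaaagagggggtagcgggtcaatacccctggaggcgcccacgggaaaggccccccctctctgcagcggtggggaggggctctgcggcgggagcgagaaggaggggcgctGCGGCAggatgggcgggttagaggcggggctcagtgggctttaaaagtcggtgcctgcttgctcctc
Nap1l5: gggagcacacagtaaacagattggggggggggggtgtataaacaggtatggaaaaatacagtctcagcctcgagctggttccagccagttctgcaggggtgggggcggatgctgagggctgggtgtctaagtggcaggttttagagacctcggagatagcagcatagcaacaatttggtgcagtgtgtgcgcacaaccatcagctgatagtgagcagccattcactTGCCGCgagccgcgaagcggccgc
Mcts2: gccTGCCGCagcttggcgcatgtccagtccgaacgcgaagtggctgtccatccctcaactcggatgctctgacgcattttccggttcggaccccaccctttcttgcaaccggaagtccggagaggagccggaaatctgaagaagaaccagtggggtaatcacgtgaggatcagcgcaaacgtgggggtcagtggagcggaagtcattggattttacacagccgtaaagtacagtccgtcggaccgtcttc
Peg3-Usp29: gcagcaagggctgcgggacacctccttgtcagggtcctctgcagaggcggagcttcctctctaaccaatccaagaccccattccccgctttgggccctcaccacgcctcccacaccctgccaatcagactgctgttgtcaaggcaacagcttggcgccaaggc

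The printed stretch of Mest held 2 copies of the hexamer, those of Nap1l5 and Mcts2 held 1 each, and the Peg3-Usp29 stretch held none. RefSeq windows from 250 bases before to 50 bases after the start were matched for 33 of the 40 members. The hexamer occurred on either strand in 14 of the 52 windows of members (26.9%), against 11.6% of 32851 windows of all genes. The windows of members held a median of 13.5 CpG dinucleotides and those of all genes 7, and the hexamer itself contains a CpG. At least 1 window held it for 13 of the 33 matched members (39.4%), against 13.1% of all genes with windows. Among them were 7 of 12 matched members that fell, 3 of 10 that rose and 3 of 10 that did not pass the test. Genes with several windows had more chances to hold it, and any link of the hexamer to direction was not tested. Of the matched members that fell further than Mest and Nap1l5, Nnat and Zim1 had a window with it, and Slc38a4 and Phlda2 had none. The printed stretches are therefore not representative. A match is a description of these letters and not of binding.

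The targeted gene Exosc2 had scaled counts of 2457, 2473 and 1954 in the controls, and the clones measured 1138, 997 and 981. Its log2 fold change was -1.14 ± 0.13 (SE), with an adjusted p of 5.1e-05 in limma and an exact two-sided permutation p of 0.1, the smallest that 3 against 3 libraries allow. The ESC label was checked on 18 pluripotency markers. All 18 passed the test, 16 lower and 2 higher in the clones, and Nanog had 28918 reads over the controls and 2 over the clones, so the clones nearly lacked a defining marker of the labelled cell type. The 2 that rose were Pou5f1, equally defining, from 21045 ± 4721 to 91114 ± 2227, and Klf4, from 2415 ± 82.0 to 14169 ± 2032. Throughout, levels are read counts scaled by DESeq, and log2 fold changes are clones over controls on log2(scaled count + 1), from limma with Benjamini-Hochberg adjustment over all tested genes and a threshold of 0.05. Where 6 values follow each other, those of controls 1 to 3 come first and those of clones 5 to 7 second.

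The imprinted genes changed in both directions, and about as often as other genes. Of the 40 members, 39 reached a mean of 10 scaled counts and were tested, and Asb4 did not. In the clones 13 rose, 15 fell and 11 did not pass the test. The 28 called members are 71.8% of those tested, where 73.5% of 15179 genes were called. Genes called higher made up 35.2% of all tested genes and genes called lower 38.3%. The 3 control and 3 clone values did not overlap for 29 of 39 members, against 77.3% of all tested genes. These shares are near those of the background and are not a result about imprinted genes. The size of the changes ranged from a log2 fold change of -7.24 for Peg10 to 4.04 for Peg13, with a median absolute change of 1.10, where all tested genes had 0.96.

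Both parental classes held genes that rose and genes that fell. Of 22 tested paternally expressed members, 8 rose, 9 fell and 5 missed the threshold, and the class median was a log2 fold change of -0.19. Of 17 tested maternally expressed members, 5 rose, 6 fell and 6 missed it, and the class median was -0.22. The median over all tested genes was -0.07. Changes of at least 2-fold were called for 13 paternally expressed members (5 higher, 8 lower) and 7 maternally expressed ones (3 higher, 4 lower). Among all tested genes 48.1% were called at 2-fold or more, 22.4% higher and 25.7% lower, so the 20 of 39 members are near that share. The paternal median turned to 0.30 with quantile normalization and was -0.42 without control replicate 2, and the maternal median was -0.05 without control replicate 3. The plot of all members in each library shows the genes of both parental classes spread from far below to far above their control values.

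**Figure D1:**
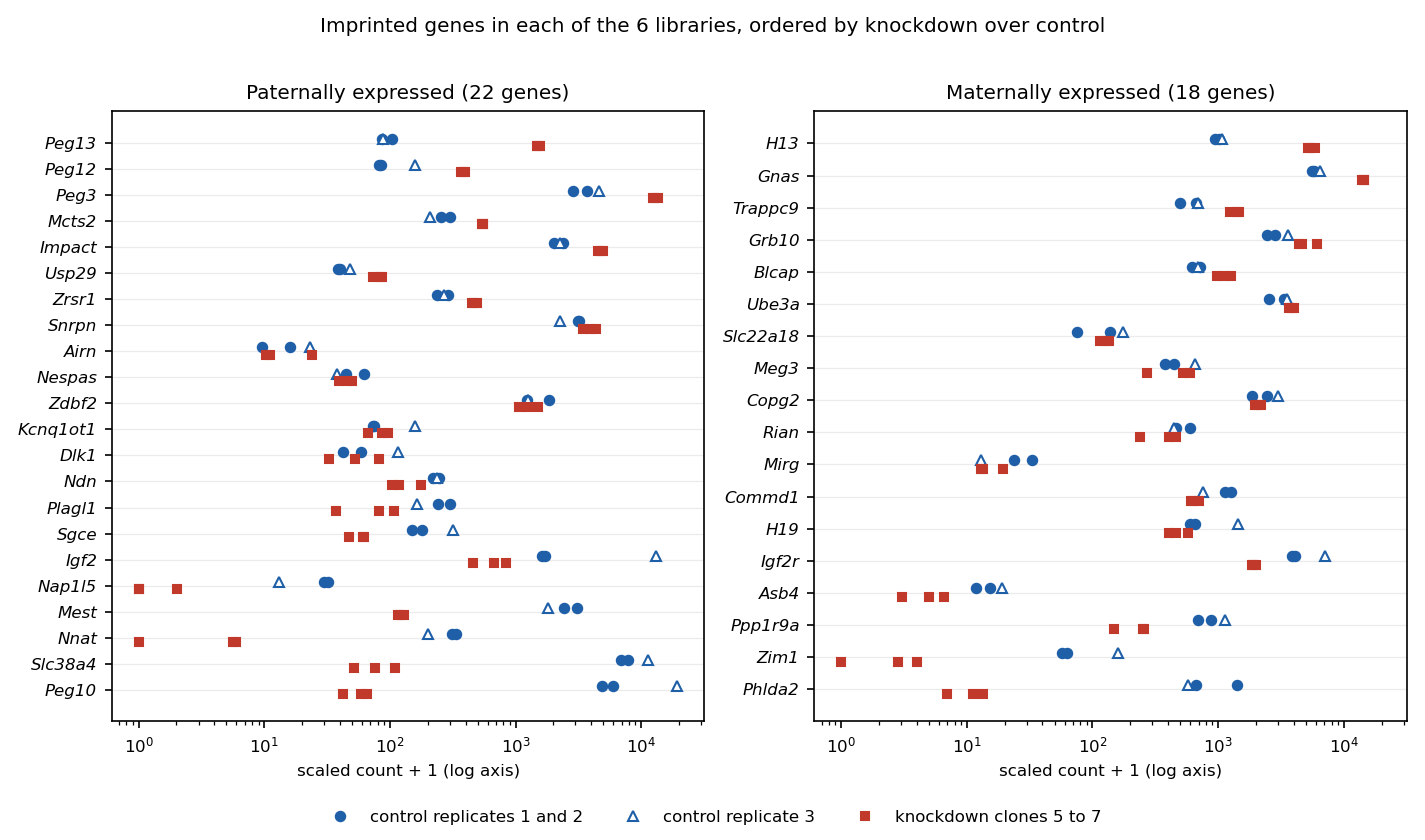
Scaled count plus 1 on a log axis for all 40 imprinted genes in each of the 6 libraries, paternally expressed genes on the left and maternally expressed genes on the right, ordered by clone mean over control mean. Filled circles are control replicates 1 and 2, open triangles control replicate 3 and squares the clones; Peg10, Slc38a4, Nnat and Phlda2 stand at the bottom with clone values far under all controls, and Peg13 and H13 at the top.

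Set per kilobase of annotated exon, the most abundant members changed between the groups. In controls Slc38a4 was highest with a mean of 2039 scaled counts per kilobase, followed by Peg10 with 1514, Snrpn with 1330, Igf2 with 958 and Phlda2 with 791. The order of Peg10 and Igf2 there is not firm, since each had a control SD near or above its mean. In the clones Snrpn was highest with 1801, followed by Gnas with 1283, Peg3 with 971, Impact with 928 and H13 with 618. Slc38a4, Peg10, Igf2 and Phlda2 had 18.4, 8.19, 115 and 8.46 scaled counts per kilobase in the clones. Exonic length was the union of all annotated exons, so a gene that uses few of its isoforms is understated.

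The Peg10-Sgce cluster on chromosome 6 was lower in the clones for all its members, whether paternally or maternally expressed. Peg10, a retrotransposon-derived gene needed for placenta formation (chromosome 6, positions 4747306 to 4760517 in GRCm38), measured 5937, 4877 and 19475, then 64.7, 41.1 and 58.1. Every clone was far below every control, and control replicate 3 was well above the other controls. The log2 fold change was -7.24 ± 0.46 (adjusted p = 1.5e-06 in limma), and -6.62 without control replicate 3. In bulk RNA, fewer cells that express a gene and less RNA per cell cannot be told apart.

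Sgce, which encodes epsilon-sarcoglycan and starts 0.1 kb from Peg10 on the opposite strand, measured 179, 148 and 314, then 59.7, 46.2 and 60.9. It fell less than Peg10, by 1.86 on the log2 scale (SE 0.30), with no overlap between the groups. Of the maternally expressed neighbours, Ppp1r9a, which encodes the actin-binding protein neurabin, measured 877, 691 and 1144, then 256, 250 and 148. Its log2 fold change was -2.06 ± 0.26. Asb4, a SOCS-box protein gene, was too low to be tested, with 10.8 to 18.1 in controls and 2.05 to 5.54 in clones, again without overlap. The log2 ratio of Peg10 to Sgce was 5.34 ± 0.53 (SD, n = 3) in controls and -0.04 ± 0.14 in clones. Both genes of this divergent pair thus fell, by unequal amounts. The 3 tested genes outside the 40 that start within 500 kb of Peg10 rose. Among them were Col1a2, a fibroblast collagen gene, from 1869 to 8690, and Casd1, from 311 to 488. Casd1 is itself listed as imprinted, as are Pon2 and Pon3 near Ppp1r9a, which rose from 128 to 439 and from 50.9 to 141. Calcr, another imprinted gene of the region, was too low to be tested, with 29 reads over the controls and none over the clones.

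On the same chromosome Mest and Nap1l5 also fell. Mest, a hydrolase-fold gene of mesoderm and placenta (chromosome 6, positions 30723547 to 30748465), measured 3059, 2433 and 1819, then 115, 130 and 122. The clones kept 5.01% of the control mean, and the log2 fold change was -4.28 ± 0.19 (adjusted p = 2.2e-07 in limma). Copg2, a coat protein gene that overlaps the end of Mest on the opposite strand and is maternally expressed, measured 2447, 1862 and 3018, then 2055, 2185 and 1956. The groups overlapped for Copg2 and it did not pass, with -0.22 ± 0.17, although it passed without control replicate 2 at -0.40 and with chromosome medians subtracted at -0.60. The log2 ratio of Mest to Copg2 was -0.01 ± 0.63 in controls and -4.07 ± 0.07 in clones.

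Nap1l5, an intronless copy of a nucleosome assembly gene inside an intron of Herc3, had a control mean of 24.2 and 1 read over the 3 clones. The ratio of means was 70.5, with an exact 95% Poisson interval of 12.7 to 2786 that covers counting error only, as reads copied by PCR and not tagged by molecule are not independent. Its host gene Herc3 went the other way, from 785 to 2680.

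Slc38a4, an amino acid transporter gene of the placenta and liver, was among the most abundant members in controls and nearly gone in the clones. It lies on chromosome 15 (positions 96994820 to 97055956) and measured 7902, 6913 and 11254, then 75.6, 50.3 and 109. The clones kept 0.90% of the control mean, and the log2 fold change was -6.81 ± 0.28 (adjusted p = 1.5e-07 in limma). Of 4 tested genes outside the 40 within 500 kb, 2 rose and 2 fell, with log2 fold changes from -3.83 to 1.93.

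Nnat and Blcap, a gene inside the intron of another, moved in opposite directions. Nnat encodes neuronatin, a small membrane protein of the endoplasmic reticulum, and measured 310, 337 and 201, then 4.97, 0 and 4.61. Blcap, the maternally expressed host on the opposite strand, measured 712, 614 and 690, then 1119, 988 and 1275. Neither gene's groups overlapped. Nnat fell by 6.42 on the log2 scale (SE 0.65), and Blcap rose by 0.74 (SE 0.13). The log2 ratio of Nnat to Blcap was -1.28 ± 0.46 in controls and -8.44 ± 1.31 in clones.

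In the Peg3 cluster of chromosome 7 the paternally expressed genes rose and the maternally expressed one fell. Peg3, a large zinc finger protein gene that starts next to Usp29 (chromosome 7, positions 6703892 to 6730431), measured 3705, 2864 and 4642, then 13687, 12642 and 12464. All clones were above all controls, and the log2 fold change was 1.82 ± 0.16 (adjusted p = 1.2e-05 in limma). Usp29, a deubiquitinase-family gene read from the other side of the stretch printed above, measured 37.9, 38.9 and 47.2, then 82.6, 72.9 and 84.9. It rose by 0.94 (SE 0.22, and by 1.71 with quantile normalization), again without overlap, so both sides of the shared stretch were higher in each clone.

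Zim1, a maternally expressed zinc finger gene 34.0 kb from Peg3, measured 55.9, 61.6 and 159, then 2.98, 0 and 1.85. Its log2 fold change was -5.20 ± 0.59, and -3.75 with a pseudocount of 5. Of 9 tested genes outside the 40 within 500 kb of Peg3, 1 rose, 5 fell and 3 missed the threshold, and their median was -1.37. Peg3 and Usp29 therefore moved against the median of those genes.

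The Snrpn-Ndn cluster, the counterpart of the human Prader-Willi and Angelman region, changed gene by gene. Peg12, a Frat-family gene that binds the kinase GSK3, measured 83.3, 81.0 and 157, then 385, 368 and 399, and rose by 1.90 on the log2 scale (SE 0.26). Ndn, which encodes the MAGE-family protein necdin and starts 117.9 kb from Peg12, measured 220, 243 and 234, then 117, 103 and 174. Ndn fell by 0.85 (SE 0.23). Both are paternally expressed and neither had overlapping groups, so neighbours of the same parental class moved apart.

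Snrpn, which encodes the spliceosomal protein SmN, measured 3156, 3196 and 2260, then 3903, 4338 and 3425. Its rise of 0.45 (SE 0.16, adjusted p = 0.0285 in limma) was not called without control replicate 3 (0.29), clone 5 (0.44) or clone 6 (0.37), with quantile normalization (0.27) or with eBayes without trend (adjusted p = 0.064). Ube3a, the maternally expressed ubiquitin ligase gene, measured 3340, 2548 and 3553, then 4025, 3909 and 3640. Its groups did not overlap but it did not pass, with 0.31 ± 0.14 and an adjusted p of 0.0685 in limma. It passed without control replicate 3 at 0.40 and with chromosome medians subtracted at 0.49. The log2 ratio of Ube3a to Snrpn was 0.14 ± 0.49 in controls and -0.01 ± 0.13 in clones.

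Igf2 and H19 were both lower in the clones, and both were highest in control replicate 3. Igf2, the fetal insulin-like growth factor (chromosome 7, positions 142650766 to 142666816), measured 1635, 1725 and 13092, then 675, 460 and 844. H19, the maternally expressed non-coding RNA 88.7 kb away that shares its enhancers, measured 652, 595 and 1449, then 464, 405 and 571. For both genes the clones lay under all 3 controls, by a small margin in H19. The log2 fold change of Igf2 was -2.38 ± 0.71 (adjusted p = 0.0139 in limma) and, without control replicate 3, -1.39 ± 0.24 (adjusted p = 0.00194 in limma). DESeq2 on the recovered reads gave no adjusted p for Igf2 and so made no call.

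H19 passed narrowly, with -0.80 ± 0.32 and an adjusted p of 0.0474 in limma. Without control replicate 3 it had -0.39 (adjusted p = 0.0709), and the call was also lost without control replicate 1 (-0.97), clone 5 (-0.78) or clone 6 (-0.68), with a pseudocount of 0.5, with eBayes without trend and with chromosome medians subtracted (-0.61). The Igf2 to H19 log2 ratio was 1.33, 1.53 and 3.17 in the controls and 0.54, 0.18 and 0.56 in the clones, a change of -1.58 that was -1.0 without control replicate 3. Igf2 was thus the higher of the pair in all 6 libraries in scaled counts, most of all in control replicate 3.

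The Kcnq1ot1 cluster, further along chromosome 7, held a single member with a large change. Phlda2, a pleckstrin-homology gene that restrains placental growth (positions 143501545 to 143503150), measured 670, 1416 and 572, then 5.97, 12.3 and 10.1. The clones kept 1.07% of the control mean (log2 fold change -6.34 ± 0.39, adjusted p = 1.1e-06 in limma). Slc22a18, a transporter gene 29.4 kb away and also maternally expressed, measured 74.8, 136 and 175, then 114, 134 and 126. Kcnq1ot1, the paternally expressed non-coding RNA that silences this cluster in cis, measured 73.9, 72.4 and 157, then 85.6, 95.6 and 66.4.

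The groups overlapped for both, and neither passed (0.04 ± 0.31 and -0.21 ± 0.33). With maternally expressed Cdkn1c, a cyclin-dependent kinase inhibitor gene 42.1 kb from Phlda2 that is not among the 40, the cluster held another deep fall, from 217, 246 and 1165 in the controls to 2.98, 6.16 and 9.23 in the clones. The log2 ratio of Slc22a18 to Phlda2 went from -2.74 ± 0.90 in controls to 3.63 ± 0.37 in clones.

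The Dlk1-Meg3 cluster on chromosome 12 showed no called change among its members. Meg3, the first of its maternally expressed non-coding RNAs, measured 449, 377 and 657, then 601, 271 and 520. Rian, which carries small nucleolar RNAs, measured 597, 459 and 446, then 404, 238 and 458. Mirg, the host of a run of microRNAs, was low, with 12.1 to 32.2 in controls and 11.9 to 18.5 in clones. Paternally expressed Dlk1, a transmembrane protein gene related to Notch ligands, measured 41.7, 58.3 and 115, then 51.7, 31.9 and 80.3.

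The groups overlapped for all 4, with log2 fold changes of -0.13 ± 0.32, -0.49 ± 0.25, -0.54 ± 0.39 and -0.36 ± 0.44 in that order. Mirg passed at -0.91 without control replicate 3, and Rian at -0.62 with quantile normalization. The ratios of Dlk1, Rian and Mirg to Meg3 overlapped between the groups as well, the only other such pair of the 21 compared being Ube3a with Snrpn. Begain, an imprinted gene that is not a member and starts within 500 kb of Dlk1, was called lower. Begain measured 25.6, 65.9 and 37.2, then 10.9, 7.19 and 11.1, without overlap. Its log2 fold change was -1.95 ± 0.39 (adjusted p = 0.00164 in limma).

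Igf2r and Airn, an antisense pair on chromosome 17, did not mirror each other. Igf2r, the mannose 6-phosphate receptor that clears IGF2 from the cell surface, measured 4070, 3910 and 7099, then 1910, 1846 and 2017. It fell by 1.33 on the log2 scale (SE 0.21), or by 1.05 without control replicate 3, with no overlap. Airn, the paternally expressed antisense RNA through which Igf2r is silenced on that copy, had 8.64 to 22.1 in controls and 9.23 to 22.9 in clones and did not pass (-0.13 ± 0.45). With quantile normalization Airn turned to 1.52. Of 8 tested genes outside the 40 within 500 kb of Igf2r, 7 fell and none rose.

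At the Gnas locus on chromosome 2 the protein-coding gene rose and its antisense RNA did not pass. Gnas, which encodes the stimulatory G protein alpha subunit, measured 5636, 5774 and 6459, then 14086, 14561 and 14412. It rose by 1.27 (SE 0.10, adjusted p = 4.0e-06 in limma) and the clones stood close together. Nespas, the paternally expressed antisense RNA, lay between 37.2 and 61.6 in all 6 libraries, with overlapping groups (-0.09 ± 0.27). Several transcripts of different parental origin share the Gnas exons, and the table gives their sum.

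The retrogene Mcts2 and its host H13 rose together. H13, which encodes signal peptide peptidase and is maternally expressed, measured 952, 1025 and 1068, then 5168, 5423 and 5867. Mcts2, a paternally expressed translation factor copy in an H13 intron whose promoter is printed above, measured 301, 255 and 207, then 549, 540 and 554. H13 rose by 2.43 (SE 0.10) and Mcts2 by 1.12 (SE 0.17), both without overlap. Of 22 tested genes outside the 40 within 500 kb of H13, 9 rose, 9 fell and 4 did not pass.

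Another retrogene and its host moved apart. Zrsr1, a paternally expressed relative of the splicing factor U2AF in an intron of Commd1, measured 290, 237 and 268, then 463, 490 and 451. Commd1, a regulator of copper transport and NF-kappaB, measured 1139, 1266 and 751, then 634, 701 and 603. Zrsr1 rose by 0.82 (SE 0.15) and Commd1 fell by 0.67 (SE 0.19). The Commd1 call was lost without control replicate 1, at -0.60 with an adjusted p of 0.057 in limma.

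Peg13 had the largest rise of all members. This paternally expressed non-coding RNA lies in an intron of Trappc9 (chromosome 15, positions 72805600 to 72810324) and measured 103, 85.3 and 86.4, then 1482, 1503 and 1555. The clones reached 16.5 times the control mean, with a log2 fold change of 4.04 ± 0.14 (adjusted p = 8.3e-08 in limma). Its host Trappc9, a subunit gene of a vesicle-tethering complex read from the same strand and maternally expressed in brain, measured 494, 671 and 689, then 1236, 1466 and 1412. Trappc9 rose by 1.16 (SE 0.16), so the log2 ratio of Peg13 to Trappc9 went from -2.73 ± 0.42 to 0.15 ± 0.11. The 2 tested genes outside the 40 within 500 kb of Peg13 did not pass.

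The members that stand alone were mixed. Grb10, an adaptor that limits insulin receptor signalling, measured 2841, 2430 and 3589, then 4674, 4381 and 6157, and rose by 0.78 (SE 0.17). Impact, a regulator of the translation-control kinase GCN2, measured 2395, 2029 and 2253, then 4962, 4532 and 4791, and rose by 1.10 (SE 0.10). Plagl1, a zinc finger transcription factor gene, measured 300, 239 and 164, then 80.6, 36.0 and 107, and fell by 1.73 (SE 0.40). None of these 3 had overlapping groups. Zdbf2, a zinc finger gene on chromosome 1, measured 1845, 1223 and 1260, then 1496, 1261 and 1061 and did not pass (-0.17 ± 0.19). Chromosome 1 as a whole had a median of -0.60, and with chromosome medians subtracted Zdbf2 stood at 0.42 without passing.

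**Figure D2:**
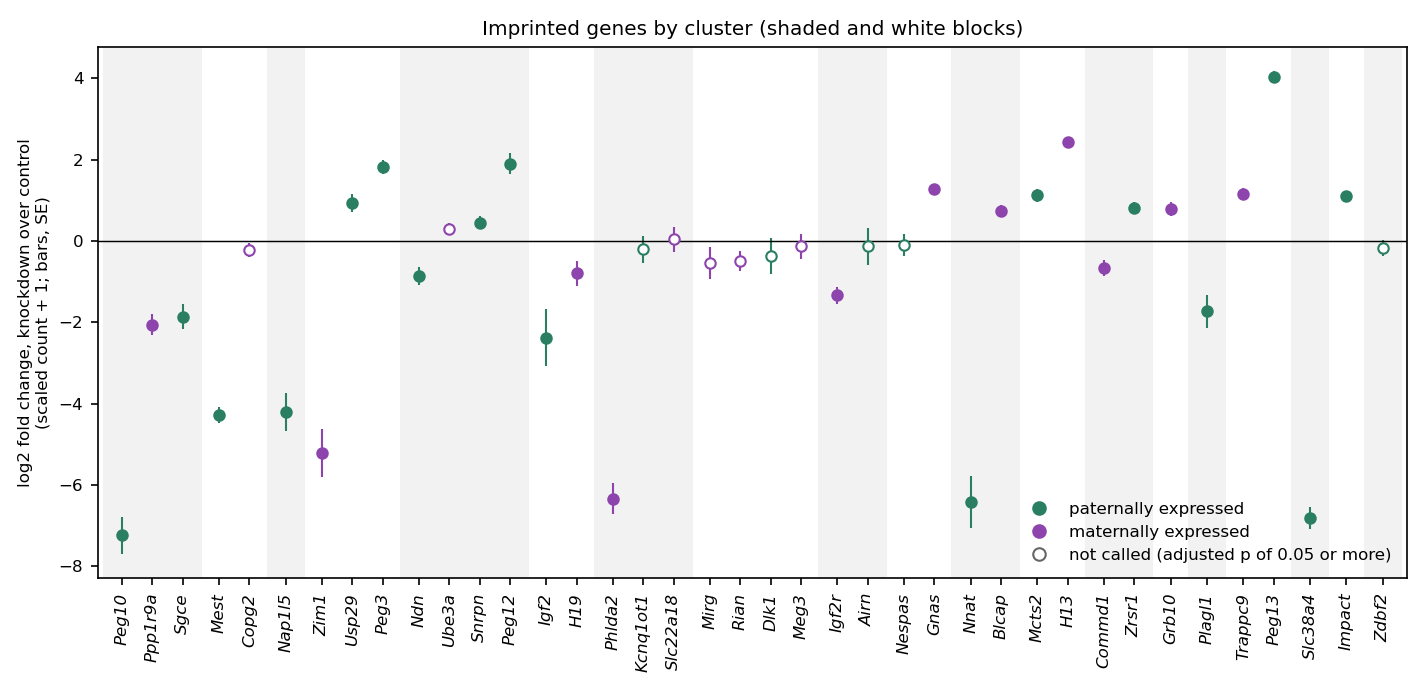
Log2 fold change of clones over controls (points) with its SE (bars) for the 39 tested imprinted genes, arranged by cluster in alternating blocks and coloured by parental expression. Open points did not pass the test; clusters such as Peg3 and Nnat-Blcap hold members on both sides of 0, while Peg10, Ppp1r9a and Sgce all lie under it.

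Genes of a cluster were compared in 21 pairs by the log2 ratio of their scaled counts in each library. In 3 pairs both genes rose, in 3 both fell, in 3 neither passed, in 5 one rose and the other fell, in 6 only one passed, and the pair with Asb4 had an untested gene. The ratio did not overlap between groups for 17 of 21 pairs. Among single tested genes 77.3% did not overlap, and ratios of other gene pairs were not computed. The count is therefore not a result about imprinted clusters. Each of the 17 pairs had an exact two-sided permutation p of 0.1, the smallest that 3 against 3 libraries allow. After Benjamini-Hochberg adjustment over the 21 pairs it was 0.124, so no pair could pass at this size. The shift was -7.16 for Nnat to Blcap, -7.02 for Zim1 to Peg3 and 6.37 for Slc22a18 to Phlda2. Some of these rest on clone values of a few counts, and with a pseudocount of 5 they were -5.90, -5.56 and 5.89. Gene bodies overlap on opposite strands for Mest and Copg2, Airn and Igf2r, Nnat and Blcap, Zrsr1 and Commd1, and Nespas and Gnas. The library kit keeps the strand, but the sources used here do not say whether the counting did, so reads from overlapping exons cannot be assigned with certainty. Mcts2 overlaps H13, and Peg13 overlaps Trappc9, on the same strand. There the strand cannot tell reads of the host from those of the gene inside it.

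**Figure D3:**
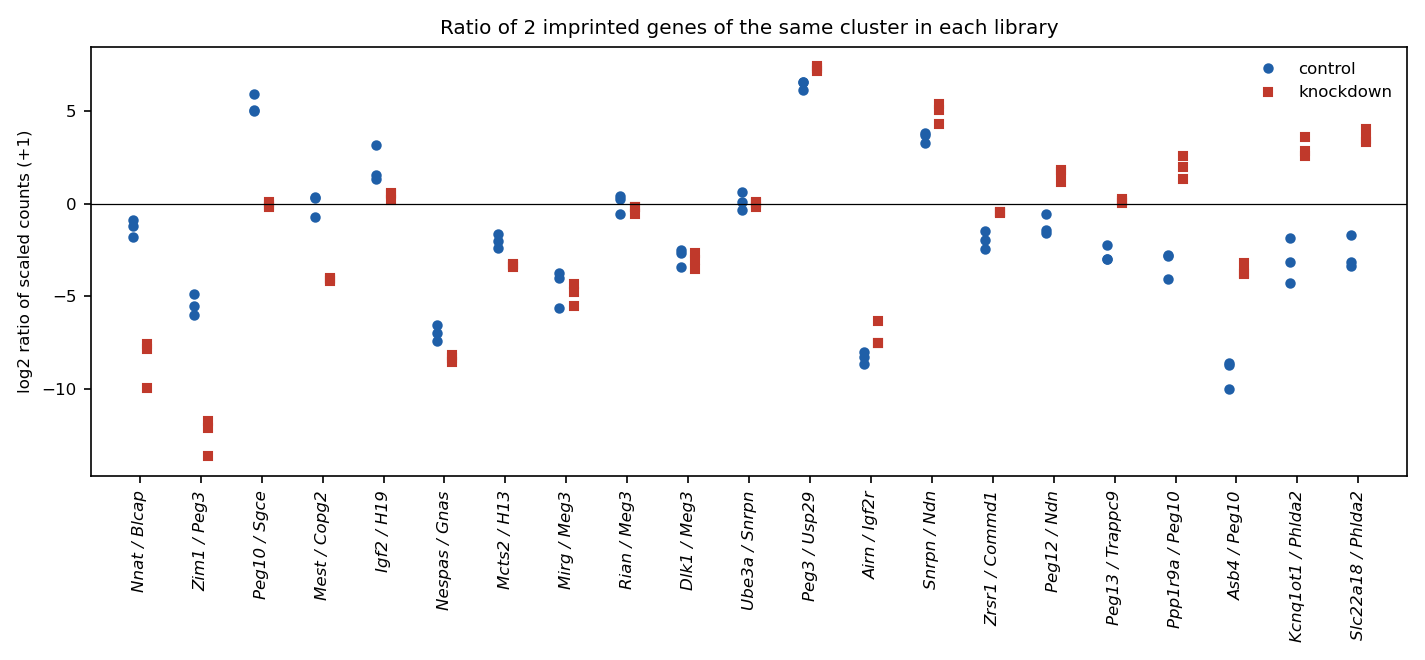
Log2 ratio of the scaled counts (plus 1) of 2 imprinted genes from the same cluster in each library, for 21 pairs ordered by the change from controls (circles) to clones (squares). Circles and squares overlap only for Dlk1, Rian and Mirg against Meg3 and for Ube3a against Snrpn.

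Within the controls, replicate 3 stood apart for several imprinted genes. It was the highest control for 22 of 39 tested members, where 40.1% of all tested genes were highest there, and it was over 2-fold above the mean of replicates 1 and 2 for 6 members, against 5.07% of all tested genes. Those were Igf2 at 7.79-fold, Peg10 at 3.60-fold, Zim1 at 2.70-fold, H19 at 2.33-fold, Dlk1 at 2.31-fold and Kcnq1ot1 at 2.14-fold. The SD of log2 values over the 3 controls was 1.71 for Igf2, larger than for any of 1656 tested genes with a control mean within 2-fold of it, and 1.08 for Peg10, exceeded by 1 of 776. For 29 of 39 members the control SD was above the median of tested genes of similar mean, and for 24 of 39 the clone SD was. The median SD was 0.37 for members and 0.25 for all tested genes in controls, and 0.22 and 0.13 in clones.

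Several trophoblast markers, but not all, were highest among the controls in replicate 3. Of 10 listed markers in the table, 7 were highest in that library among the controls, and the sum over the list was 3856, 4355 and 4726 in controls and 1041 to 1280 in clones. Plac1, a placental gene, measured 6.63, 3.24 and 274, and the trophoblast giant cell factor Hand1 71.0, 100 and 476. The giant cell hormone gene Prl3d1 measured 0, 0 and 43.2. Not highest in replicate 3 were Tfap2c, which made up most of the sum, with 3181, 3613 and 3275, Eomes with 456, 441 and 313, and Gcm1 with 18.9, 21.6 and 12.1. In the test over groups 5 of 7 markers fell, 1 rose and 1 did not pass. In the clones Cdx2 and Gcm1, defining trophoblast factors, were at 0, and Plac1 and Hand1 were at 0 to 1.03 and 0 to 3.69. Gata3, a further trophoblast factor, measured 18.9, 25.9 and 95.4, then 124, 134 and 118, and was the marker that rose. Elf5 and Prl2c2 stayed present in the clones at 2.05 to 5.54 and 18.5 to 38.7. Tfap2c and Eomes were lower in the clones but also present, at 790 to 1030 and 90.5 to 101. The part of these trophoblast markers in the imprinted gene values was not tested.

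Fibroblast and feeder markers did not single out that library. Their sum over 15 genes was 9996 to 11673 in controls and 54480 to 70427 in clones, with 5 of 15 highest in control replicate 3, and in the test 13 of 14 rose and 1 fell. Primitive and visceral endoderm markers summed to 844 to 1130 in controls and 1248 to 1949 in clones, and the clone sum was mostly Dab2, while Sox17 was at 0 in all clones. Neural and surface epithelium markers summed to 2507 to 3697 and 26599 to 39205 in controls, and 8035 to 8585 and 30156 to 32764 in clones. These sums hide opposite changes. Of 11 surface epithelium markers 5 rose and 6 fell, among them Ehf, with at most 2.16 in controls and 16062 to 17483 in clones, and Cdh1, with 13754 to 19438 in controls and 767 to 1267 in clones. Of 7 neural markers 3 rose and 3 fell, and Pax6, Sox1 and Elavl3 were at 0 in all clones. The fibroblast sum was higher in every clone than in any control. The part of any of these marker changes in the imprinted gene values was not tested.

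**Figure D4:**
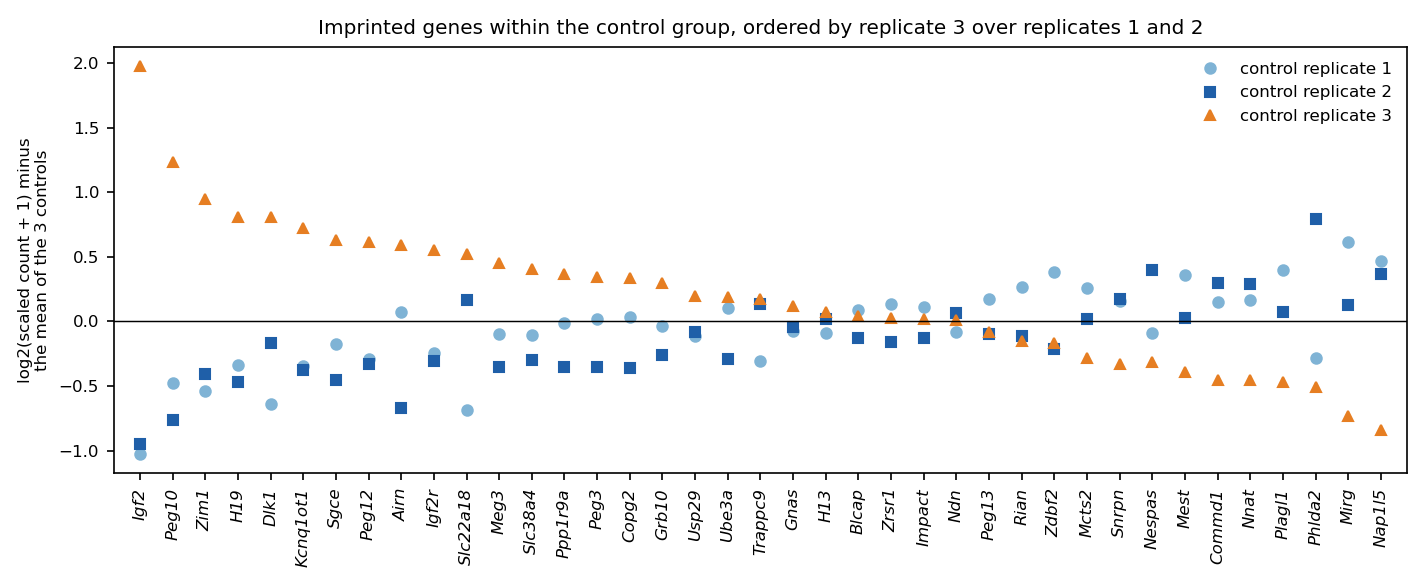
Deviation of each control library from the mean of the 3 controls, in log2(scaled count + 1), for the 39 tested imprinted genes ordered by replicate 3 over the mean of replicates 1 and 2. Replicate 3 (triangles) lies well above the others for Igf2 and Peg10 at the left and below them for Mirg and Nap1l5 at the right.

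Imprinted genes were set beside the tested genes outside the 40 that start within 500 kb, called neighbours here, so fellow members are left out. Of 28 called members, all had such neighbours, and for 12 the median of the neighbours had the same sign as the member. No such neighbour changed as much as the member for 7, namely Peg10, Slc38a4, Nnat, Zim1, Nap1l5, Peg13 and Trappc9, although Peg13 itself, within 500 kb of Trappc9, changed more than Trappc9. Around Phlda2, by contrast, the neighbours ranged from -5.91 to 6.90, with 6 higher and 4 lower of 15. Around Igf2 they ranged from -3.81 for the antisense gene Igf2os to 8.08 for Syt8, a synaptotagmin gene. Medians of the chromosomes that carry members ranged from -0.60 to 0.41, small beside the changes of the 20 members called with at least a 2-fold change.

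**Figure D5:**
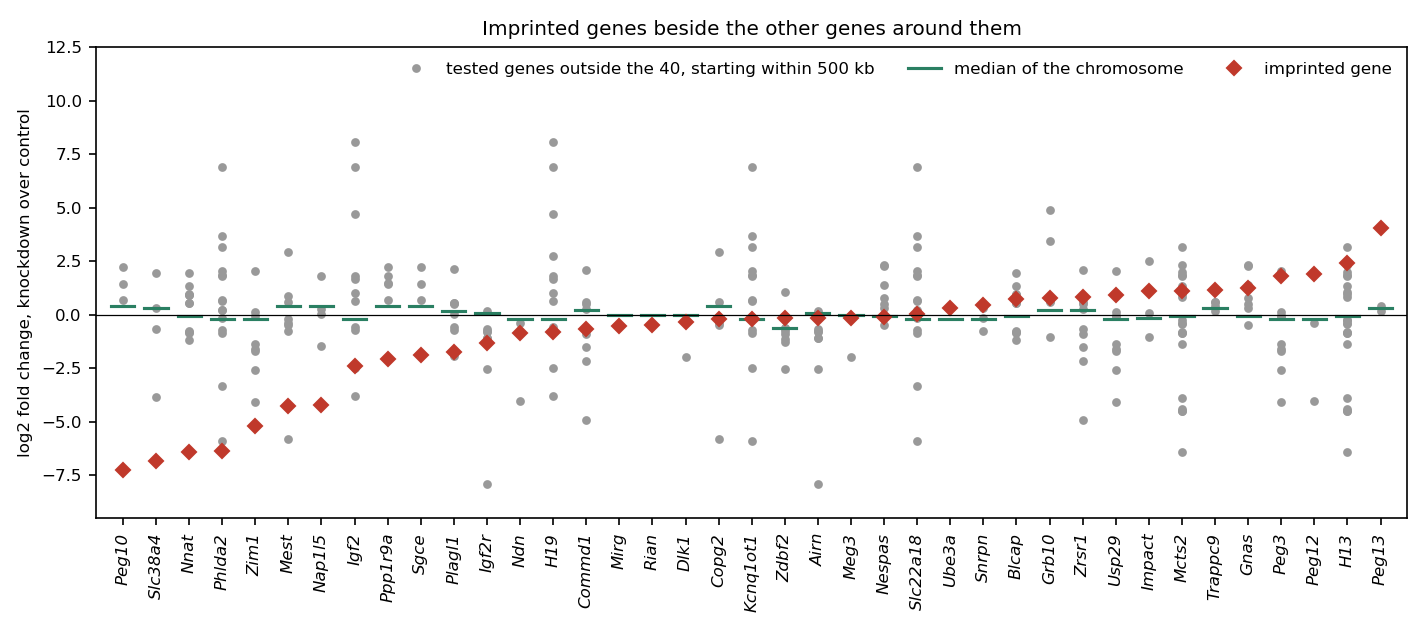
Log2 fold change of clones over controls for each tested imprinted gene (diamonds), for the tested genes outside the 40 that start within 500 kb of it (grey circles) and the median of its chromosome (bars). The diamonds of Peg10, Slc38a4 and Nnat at the left and Peg13 at the right lie outside all the grey circles around them.

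A further list of 55 imprinted genes outside the 40 was examined, of which 45 were in the table and 38 were tested. In the clones 19 rose, 10 fell and 9 missed the threshold (76.3% called), and the list's median was 0.58. Of all tested genes 73.5% were called, 35.2% higher and 38.3% lower. The called share of the list is thus near that of the background, and its split by direction was not tested. The smallest p-values belonged to Qpct, a glutaminyl cyclase gene that rose from 166 ± 42.2 to 5086 ± 227, to the chromatin reader gene Jade1, which fell from 6747 ± 485 to 742 ± 72.8, and to the phosphodiesterase gene Pde4d, which rose from 183 ± 19.1 to 2131 ± 45.0. Tsix, the antisense regulator of X inactivation, had 210 reads over the controls and none in the clones, at least 24.0-fold lower against a floor of 3 reads per library. Xist, which Tsix overlaps on the other strand, was called higher, from 202 ± 162 to 572 ± 194, although its groups overlapped. The remaining genes of this list named in the text were chosen after their values were seen.

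Genes that keep or erase imprints changed in both directions, more of them lower. Of 27 tested regulators, 15 fell, 4 rose and 8 missed the threshold, and their median was -0.65. Their called share of 70.4% is near the 73.5% of all tested genes, of which 38.3% were called lower. Without clone 6, 2 of them rose. Dppa3, which protects maternal methylation in the zygote, and Zfp42, a pluripotency zinc finger that binds some imprinted regions, had no read in any clone and were at least 385-fold and 2133-fold lower. Dnmt3l, the cofactor of imprint establishment, fell from 2404 ± 577 to 3.28 ± 0.63. The next values were also chosen after they were seen. Among the de novo methyltransferase genes, Dnmt3a fell from 1820 to 252 and Dnmt3b from 2997 to 65.3. Tet1, a gene of active demethylation, fell from 9590 to 316, while its relative Tet3 rose from 138 to 1544.

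Among the genes whose products hold imprints, Zfp57 fell by 0.33 (SE 0.12, adjusted p = 0.0299 in limma), from 4039 ± 386 to 3214 ± 339. That call was lost without control replicate 1 (-0.25), clone 6 (-0.28) or clone 7 (-0.29) and with eBayes without trend. The transcript of the maintenance methyltransferase gene Dnmt1 fell by 0.43 (SE 0.10). Its partner Uhrf1, which brings it to replicated DNA, did not pass (0.11 ± 0.12). Trim28 fell from 28276 ± 5864 to 8497 ± 503 and Ctcf, the insulator protein gene of the Igf2-H19 region, from 4743 ± 462 to 2316 ± 79.5, a log2 fold change of -1.03 that was -0.55 with chromosome medians subtracted. Zfp445, a further imprint-binding zinc finger gene, did not pass (0.32 ± 0.16), except with chromosome medians subtracted (0.46).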

How the data were processed

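The deposited values are a signal, gene-level read counts scaled by the authors. The tools named in the submitters' processing notes are cutadapt 1.6, STAR 2.5.0a, HTSeq 0.5.3 and DESeq 1.22.1, with mm10 as the build; their settings are not given in the sources used here. Per the labels' protocols, libraries were poly(A)-selected with a stranded kit. Every value was a whole multiple of 1 step per library within 0.001 read (100% of values), which gave back whole reads; edgeR on those reads called 11150 of 15179 genes. Replicate pairs differed by more than counting noise (chi-square per degree of freedom 11.4 to 62.4).

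Tested genes had a mean of 10 or more across all libraries. The test was limma 3.58.1 (eBayes with trend) on log2(value + 1), which understates changes of low genes. Positions, exonic lengths and neighbours came from GENCODE M21 (GRCm38, the assembly of mm10), which matched 17860 of 17912 genes by identifier. The test was also run on simulated counts, where 69.4% of genes changed 2-fold and 20.4% of those changed 1.5-fold were recovered among 14670 genes. Groups come from the sample titles. All 40 members are accounted for, those with a mean of at least 50 in a group with a value per library. Of the lists of further imprinted genes and of regulators, the 3 members with the smallest p are named. So are those without reads in 1 group and with a mean of at least 50 in the other. The pluripotency markers Nanog, Pou5f1 and Klf4 were not named by that rule. The members and lists were chosen with earlier results of these data known. The alternatives used a pseudocount of 0.5 or 5, every gene in the table or a mean of 50 as minimum, TMM or quantile normalization, eBayes without trend or robust, edgeR 4.0.16 and DESeq2 1.42.0 on the recovered reads, chromosome centring (subtracting, per library, each chromosome's median difference to the control mean), and leaving out each library. R 4.3.3 and Python 3.11.15 were used.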

Additional observations from a re-analysis of the deposited data

How the results depend on the processing

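The call and direction of 25 of 28 called members held in the 17 alternatives, as far as each tested them; Commd1, H19 and Snrpn lost theirs in some, as given above. The number of called members was 26 to 29 over all alternatives, 28 with edgeR and 27 with DESeq2. DESeq2 gave no adjusted p for Igf2, so the Igf2 call was not checked by that method. The paternal median was 0.30 with quantile normalization and from -0.42 to -0.083 when a library was left out; the maternal median was -0.51 with chromosome centring and from -0.40 to -0.049. For the further imprinted genes, a minimum mean of 50 gave 6 lower and a median of 0.77, and chromosome centring a median of 0.41. Of the regulators, 2 were higher under quantile normalization, 2 under eBayes without trend and 2 to 5 when a library was left out. The regulator median was -0.84 without a filter, -0.54 at a minimum mean of 50, -0.52 under quantile normalization and -0.47 under chromosome centring. Some members that did not pass changed sign. Under quantile normalization the log2 fold change was 1.52 for Airn, which then passed, 0.40 for Dlk1, 0.32 for Kcnq1ot1, 0.88 for Mirg and 0.77 for Nespas. Leaving out a library gave -0.52 to 0.16 for Airn, -0.68 to 0.048 for Dlk1, -0.40 to 0.16 for Kcnq1ot1, -0.36 to 0.22 for Meg3, -0.25 to 0.11 for Nespas, -0.31 to 0.30 for Slc22a18 and -0.29 to 0.022 for Zdbf2. Slc22a18 was -0.066 with edgeR and -0.057 with DESeq2, and Zdbf2 0.42 with chromosome centring. The cause was not tested. No paired analysis was possible because the groups share no replicate numbers. In the simulation changes of 1.5-fold were mostly missed, but few of its genes were changed, where 73.5% of tested genes were called here. Smaller changes were called here, such as Dnmt1 at -0.43 on the log2 scale. The simulated share is therefore no measure of what this test could call. Members under about 50 scaled counts rest on few reads.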

Other observations

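A group of genes is known to be imprinted in early embryos and placenta through histone methylation by the Polycomb complex rather than through DNA methylation. The group was chosen after values were seen and gets no test of its own. Besides Slc38a4, it includes Sfmbt2, itself a Polycomb-related gene, which went from 1236 ± 710 to 45.3 ± 17.0, the signalling adaptor gene Gab1, from 9026 ± 1269 to 921 ± 35.8, and Jade1, given above. Their log2 fold changes were -4.67 ± 0.42, -3.28 ± 0.12 and -3.18 ± 0.11. Smoc1, a matrix protein gene of the same kind, went the other way, with 0.54 ± 0.16, a call that was lost without clone 6 (0.47). Eed, a core Polycomb subunit gene, fell by 1.36 (SE 0.13).

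Around Phlda2, genes of the tumour necrosis factor receptor family that are imprinted in placenta were higher in the clones. Tnfrsf22 went from 268 ± 45.0 to 1100 ± 24.9 and Tnfrsf23 from 145 ± 46.1 to 1806 ± 73.9, and the sterol-binding protein gene Osbpl5 next to them from 143 ± 53.0 to 495 ± 76.0. Ascl2, a trophoblast transcription factor gene between Igf2 and Kcnq1ot1, went from 120 ± 33.1 to 20.6 ± 2.41. Magel2, which starts 30.4 kb from Ndn, had 101 reads over the controls and 4 over the clones.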
